A study of Arabidopsis thaliana with 3 samples.

Results

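The plastid chromosome of Arabidopsis thaliana carried 204 of the 673 summits in the deposited peak lists of a pull-down for 6mA, adenine that carries a methyl group on its N6 atom. Every summit row on the plastid chromosome was taken, and both lists were kept apart. Replicate 1 had 177 plastid summits in 72 peaks, out of 297 summits in 146 peaks. Replicate 2 had 27 plastid summits in 10 peaks, out of 376 summits in 149 peaks. The lists differed in where these summits lay. In replicate 1, 164 of the 177 summits lay in the single-copy regions, and no fold over input was above 1.22. In replicate 2 all 27 summits lay in the inverted repeat, 17 of them on rRNA genes, at folds of up to 2.67.

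The groups were 2 immunoprecipitated libraries and 1 input library, all from wild-type Col-0 seedlings aged 9 days and grown with 16 h of light a day at 22 °C. DNA was sheared to about 300 bp and pulled down with an antibody that the labels describe as directed against the N6-methyl mark of both RNA and DNA, and the input library was sheared DNA without pull-down. The labels do not say whether the immunoprecipitated libraries came from separate plants, so differences between them may be technical. Replicate 1 kept 28141317 fragments, replicate 2 kept 995366 and the input kept 61231606, which is a mean coverage of 42.3 fragments per base in replicate 1 and 1.77 in replicate 2. Coordinates refer to TAIR10. The fold of a summit is the authors' ratio of its pull-down pileup (the number of fragments over the summit) to the local input background.

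Plastids descend from cyanobacteria and keep a small circular chromosome. It encodes part of the photosystems, the cytochrome complex between them, the ATP synthase, an NADH dehydrogenase-like (NDH) complex, a bacterial-type RNA polymerase, and the rRNAs, tRNAs and part of the ribosomal proteins of the plastid ribosome. Its circle is divided into a large and a small single-copy region by a pair of inverted repeats that hold the rRNA operon, so each repeat gene is present in both copies with the same sequence. N6-methyladenine is best known from bacterial DNA, where it marks sites of restriction-modification systems.

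Plastid summits stood on deep input in both lists. In replicate 1 the implied input background had a median of 144 times that library's mean coverage at plastid summits (range 108 to 257), against 172 times at nuclear summits. In replicate 2 it had a median of 235 times at plastid summits (range 186 to 258), against 22.3 times at nuclear summits. Plastid folds were low beside nuclear folds in each list. Their median was 1.11 at plastid summits against 1.39 at nuclear summits in replicate 1, and 1.86 at plastid summits against 6.16 at nuclear summits in replicate 2. The authors kept at most 1 fragment per position, which removed 23% of the fragments from replicate 1, 50% from replicate 2 and 42% from the input. At the replicate 1 plastid summits the median pull-down pileup was 6878. The implied input background there had a median of 13271 when scaled back up to the size of the input library. The part of duplicate removal in these folds was not tested.

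**Figure D1:**
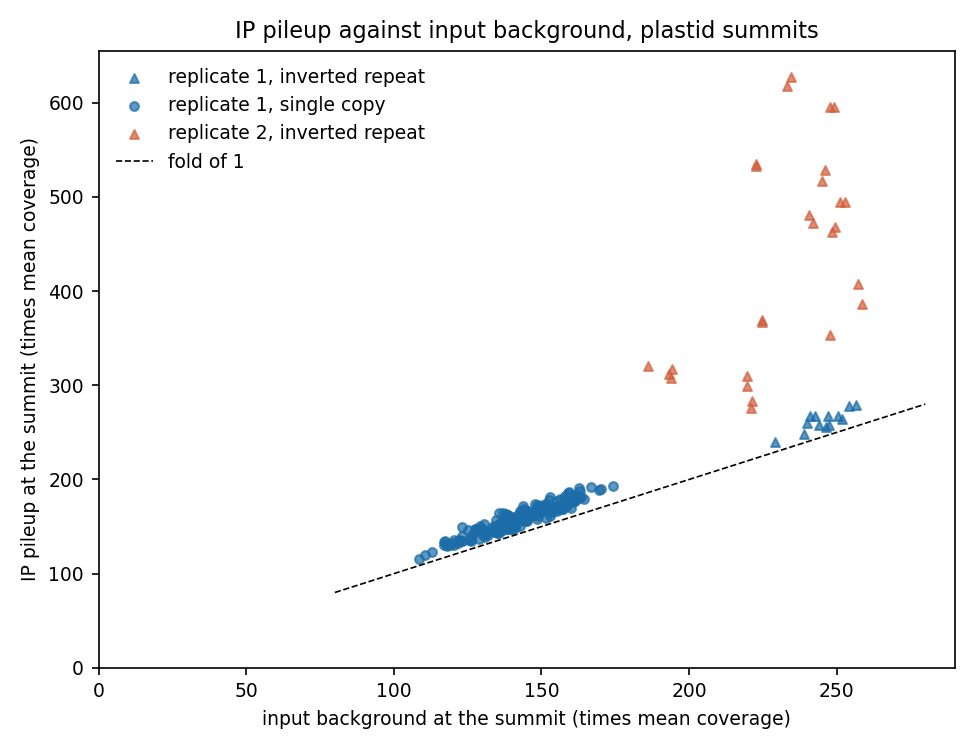
Pull-down pileup (y axis) against implied input background (x axis) at each plastid summit, both in multiples of that library's mean coverage, with circles for single-copy regions and triangles for the inverted repeat. Replicate 1 points lie close above the dashed line of equal signal at all backgrounds, and replicate 2 points reach 628 times the mean coverage over backgrounds of 186 to 258.

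The positions of the lists and of the gene table were checked against each other through the repeat. In the table, 15 pairs of repeat genes mirrored each other around a common centre. In replicate 2, 13 pairs of summits mirrored each other within 50 bp, around a centre that differed from that of the genes by -2.5 bp (median), and the 3 such pairs of replicate 1 by -0.5 bp. Peaks and genes were therefore set side by side without a shift. No test against random positions was made, so the shares below are descriptions of these lists.

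Replicate 1 summits were spread over the single-copy regions. The large single-copy region, 84.3 kb, held 144 of the 177 (81.4%, exact 95% interval 74.8 to 86.8), which is 1.71 summits per kb. The small single-copy region, 17.8 kb, held 20 (11.3%, 7.04 to 16.9), or 1.13 per kb. The inverted repeat, 52.2 kb over both copies, held 13 (7.34%, 3.97 to 12.2), or 0.249 per kb. The share in the repeat was 4.83% among summits with −log10 q of at least 5, 4.09% with 1 repeat copy counted, and 0% among summits at or above the median fold. Summit density was thus lowest in the repeat, where the summits stood on backgrounds of 229 to 257 times the mean coverage, against 108 to 174 times at single-copy summits. The intervals treat summits as independent and cover counting error only. All 27 replicate 2 summits lay in the repeat, 14 in the first copy and 13 in the second, and the single-copy regions held 0 of 27 (exact 95% upper limit 12.8%).

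Along the single-copy regions, replicate 1 peaks followed genes. Peaks covered 70.9% of gene bases in the large single-copy region and 22.6% of the bases between genes. In the small single-copy region they covered 45.5% of gene bases and 5.12% of bases between genes, and in the repeat 9.16% and 1.27%. Over the whole chromosome replicate 1 peaks covered 36.5% of bases, and replicate 2 peaks covered 8.53%. All 72 peaks overlapped at least 1 gene, 59 of them exactly 1 gene and 13 of them 2 to 4 genes. For this count 1 shared base was enough, so with genes over 70.0% of the bases such overlap is likely wherever a peak lies. Inside genes lay 161 of the 177 summits (91.0%, exact 95% interval 85.7 to 94.7), where genes make up 70.0% of the bases. The 16 summits between genes were 9 to 230 bp from the nearest gene, and the median fold was 1.11 both inside and outside genes. Summits between genes were thus rarer, at a median as high as that inside genes.

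A gene was counted as touched when a peak covered at least 1 of its bases. Replicate 1 touched 71 of the 128 plastid genes (55.5%), 67 of them among the 96 single-copy genes (69.8%). Replicate 2 touched 12 of 128 (9.38%), and 0 of the 96 single-copy genes (0%). The class counts below are read against these shares, and gene bodies include introns.

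**Figure D2:**
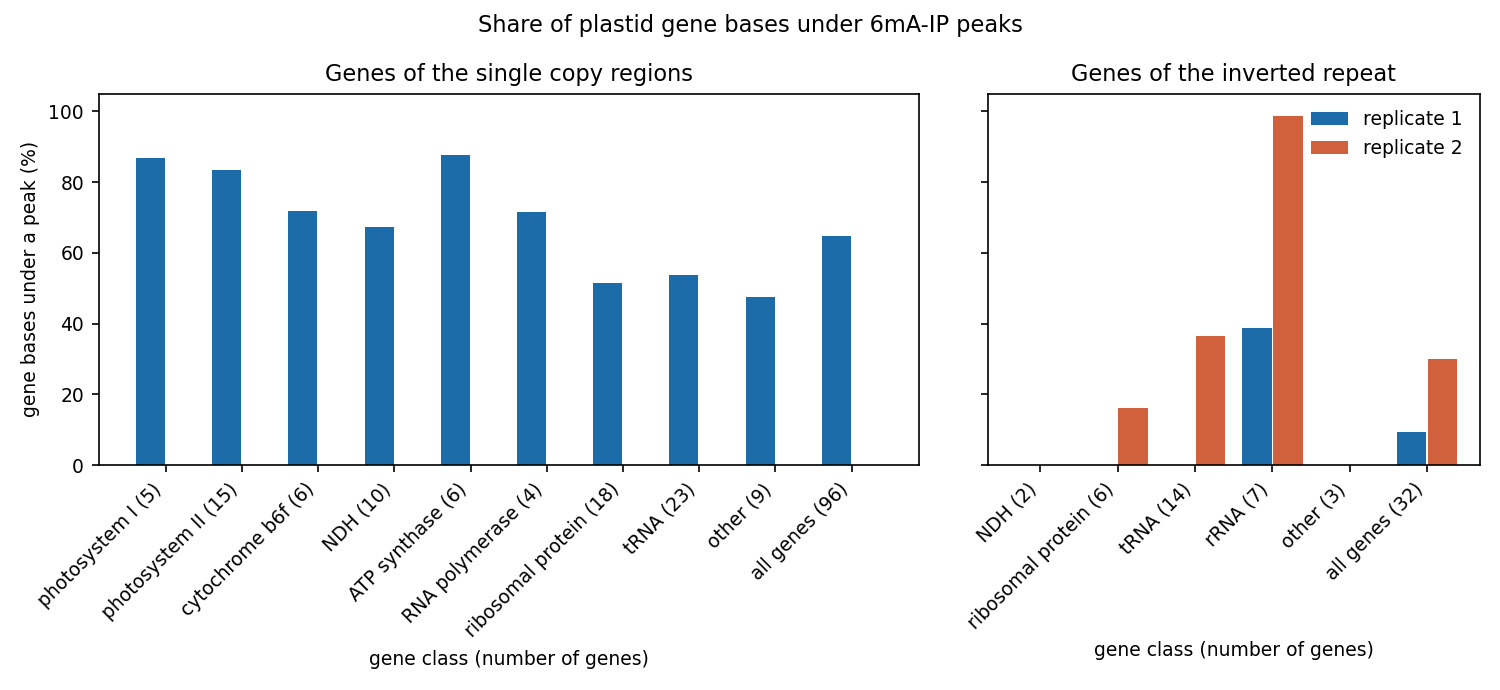
Share of gene bases under a peak (y axis, %) for each gene class (x axis, number of genes in brackets), for single-copy genes on the left and inverted repeat genes on the right. Replicate 1 covered 47.6% to 87.7% of the bases of the single-copy classes, where replicate 2 touched no gene, and replicate 2 covered 98.6% of the bases of the rRNA genes.

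By share of bases, photosystem genes were among the most covered in replicate 1, where the share over all single-copy genes was 64.7%. The photosystem I genes encode the reaction centre that reduces ferredoxin, and 3 of 5 were touched in replicate 1, with 86.7% of their bases covered. The touched genes were 60% of the class, against 69.8% of all single-copy genes. Most of the 4953 bp of the class are in psaB (2205 bp) and psaA (2253 bp). The reaction centre subunit genes psaB and psaA were covered over 96.4% and 85.3% of their length, with 7 and 5 summits at folds of 1.06 to 1.17. psaC, which encodes the iron-sulphur subunit, was covered in full with a single summit of 1.14. The small subunit genes psaI (114 bp) and psaJ (135 bp) had no base covered. Photosystem II splits water, and 11 of its 15 genes were touched, with 83.3% of bases covered. psbA and psbD, for the reaction centre proteins D1 and D2, and psbB, for the antenna protein CP47, were covered in full. Their highest folds were 1.16, 1.10 and 1.12. psbC, for the antenna protein CP43, was covered over 64.1% and held a summit of 1.17 at 33832. In the psbJ, psbL, psbF and psbE cluster a single peak at 63387 to 64651 covered all 4 genes, and psbH was covered in full as well. The 4 genes with no base covered, psbZ, psbI, psbM and psbT, were 102 to 189 bp long. Replicate 2 had no peak on any photosystem gene.

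The other complexes of the photosynthetic membrane differed in replicate 1, where peaks covered 64.7% of the bases of all single-copy genes. All 6 ATP synthase genes were touched, with 87.7% of bases covered, the highest share of any class. atpB and atpE, for subunits beta and epsilon, lay together under a peak at 52252 to 54290 and were covered in full, and so was atpH, for the membrane ring subunit, with a summit of 1.17. atpA, for subunit alpha, was covered over 91.7%, atpI over 87.2% and atpF over 62.3%. Of the 6 cytochrome b6f genes, 5 were touched, with 71.7% of bases covered, nearer to the share of all single-copy genes than to that of ATP synthase. petA, for cytochrome f, was covered over 95.7% with a highest fold of 1.17, petB and petD over 63.2% and 63.6%, and petN and petG in full. petL, 96 bp long, had no base covered.

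NDH genes split by region. The NDH complex passes electrons from ferredoxin to plastoquinone, and its 10 single-copy genes were all touched in replicate 1, with 67.4% of bases covered. ndhH was covered in full with 4 summits of 1.11 to 1.13, ndhE over 95.8%, ndhJ over 93.1% and ndhD over 89.0%. ndhI held the highest NDH summit, 1.19 at 119594, and ndhA held a summit of 1.17 at 121791. The lowest share was that of ndhF, next to the repeat, at 22.8%. Both copies of ndhB, the NDH gene in the repeat, had no base covered in either list.

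Genes of the gene expression machinery were covered unevenly. All 4 genes of the plastid RNA polymerase were touched in replicate 1, with 71.6% of bases covered. rpoB, for the beta subunit, held 11 summits, the most of any gene, at folds of 1.06 to 1.20, and was covered over 85.3%. rpoC2 held 8 summits and was covered over 74.5%, rpoC1 held 5 and was covered over 56.5%, and rpoA was covered over 58.5% with a single summit of 1.14. The share of ribosomal protein genes was below that of all genes, with 11 of 24 touched and 33.4% of bases covered, against 45.9% over all genes. Of the 18 in the single-copy regions 11 were touched, with 51.5% of bases covered, against 64.7% over all single-copy genes. Those in the repeat had no base covered in replicate 1. Among the covered genes, rps2, rps12 and rpl36 were covered in full, rps16 over 97.7% and rps4 over 86.8%. The run rps3, rpl22, rps19 at the end of the large single-copy region had no base covered, nor did rps14, rps18, rpl33 and rpl32. For rps12 the table gives only the exon in the large single-copy region.

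Few tRNA genes were touched, 9 of 37 in replicate 1 (24.3%), with 32.3% of bases covered. Of the 23 in the single-copy regions 9 were touched (39.1%), with 53.8% of bases covered, against 64.7% over all single-copy genes. Among the 9 were trnD, trnC, trnF, trnW and trnP, all of 71 to 74 bp and covered in full. The other 4 were trnK, trnL, trnG and trnV, which are 597 to 2631 bp long in the table. trnK encloses matK, the gene of a splicing factor for plastid introns, and both shared 5 summits of 1.09 to 1.15. The highest plastid fold of replicate 1 was on a tRNA gene, trnD, at 29835, where 6967 fragments stood on a background of 5733 (fold 1.22, 95% Poisson interval of the pileup 1.19 to 1.24). That interval leaves out the counting error of the input, here and below.

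Among the remaining genes, 8 of 12 were touched in replicate 1, with 24.7% of bases covered, the lowest share of any class, against 45.9% over all genes. Of the 9 in the single-copy regions 8 were touched, with 47.6% of bases covered, against 64.7% over all single-copy genes. matK was covered over 96.4%, ycf4, which serves photosystem I assembly, over 95.5%, and rbcL, for the large subunit of Rubisco, over 80.4% with a summit of 1.17 at 55902. ccsA, for a cytochrome c maturation protein, held the highest summit after that of trnD, 1.21 at 114869 (95% Poisson interval 1.18 to 1.24). clpP, for a protease subunit, was covered over 74.4%, cemA over 70.6%, ycf3 over 56.2% and accD, for a subunit of acetyl-CoA carboxylase, over 52.8%. The longest genes of the chromosome, ycf2 in both repeat copies (6885 bp each) and the long copy of ycf1 (5361 bp), had no base covered in either list. The short copy of ycf1 (1032 bp) had none either.

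The 10 highest summits of replicate 1 lay in as many genes, some of them of the same class. None was in a photosystem I, cytochrome b6f, ATP synthase or rRNA gene. After trnD and ccsA came rpoB at 25913 and rps12 at 69642, both with a fold of 1.20, then ndhI, ycf3 at 42718 (1.18), rbcL, ndhA, psbC and rpl20 at 68765 (1.17). Close below the cut were petA, atpH and psaA, at ranks 13, 15 and 18 with folds of 1.17 each. The 3 lowest summits were all on rRNA genes, at 131878, 102019 and 105692, each with a fold of 1.04, over backgrounds of 239 to 247 times the mean. By class, the median fold of summits in genes ranged from 1.06 in rRNA genes to 1.13 in photosystem I and cytochrome b6f genes. The classes overlapped widely, so no class of protein-coding genes stood apart by summit height. Across the 164 single-copy summits, the Spearman correlation between fold and background was 0.054. These summits share a library and an input.

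**Figure D3:**
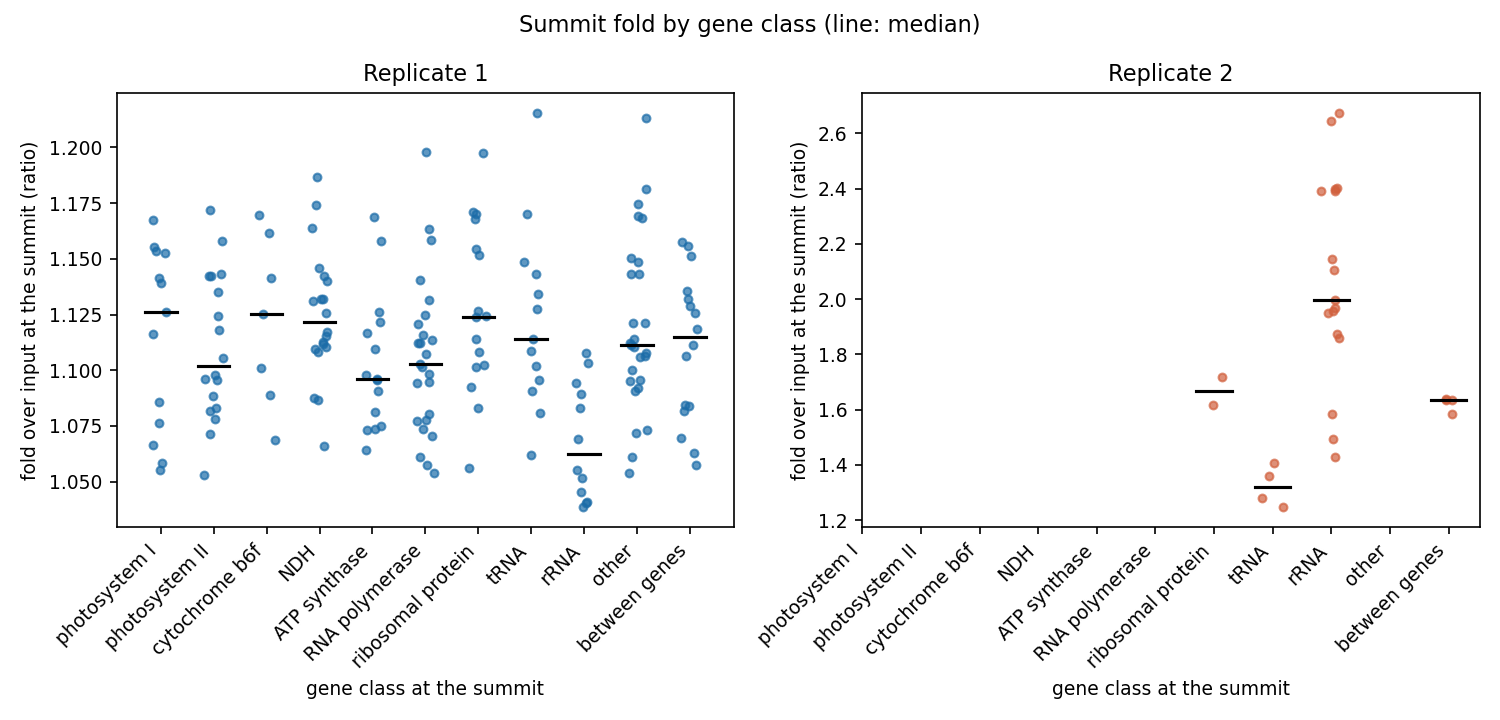
Fold over input (y axis, ratio, not starting at 0) of each plastid summit by the class of the gene under it (x axis), with replicate 1 on the left and replicate 2 on the right. Points are summits and lines are medians, and a summit in overlapping genes of 2 classes is drawn in both. Replicate 1 classes overlap between 1.04 and 1.22, and in replicate 2 the highest fold outside the rRNA genes is 1.72, in rpl2.

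Gene length went with whether a single-copy gene was touched in replicate 1. Of the 33 single-copy genes under 150 bp, 13 were touched, and of the 21 genes of 150 to 499 bp, 14 were. Of the 15 genes of 500 to 999 bp, 14 were touched, all but rps3, and of the 27 genes of 1000 bp or more, 26 were, all but ycf1. Longer genes have more bases at which a peak can touch them. The short genes were mostly covered in full or not at all. Peaks were 205 to 2534 bp long, with a median of 566.5 bp, so a gene shorter than a peak is often either inside or outside it.

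**Figure D4:**
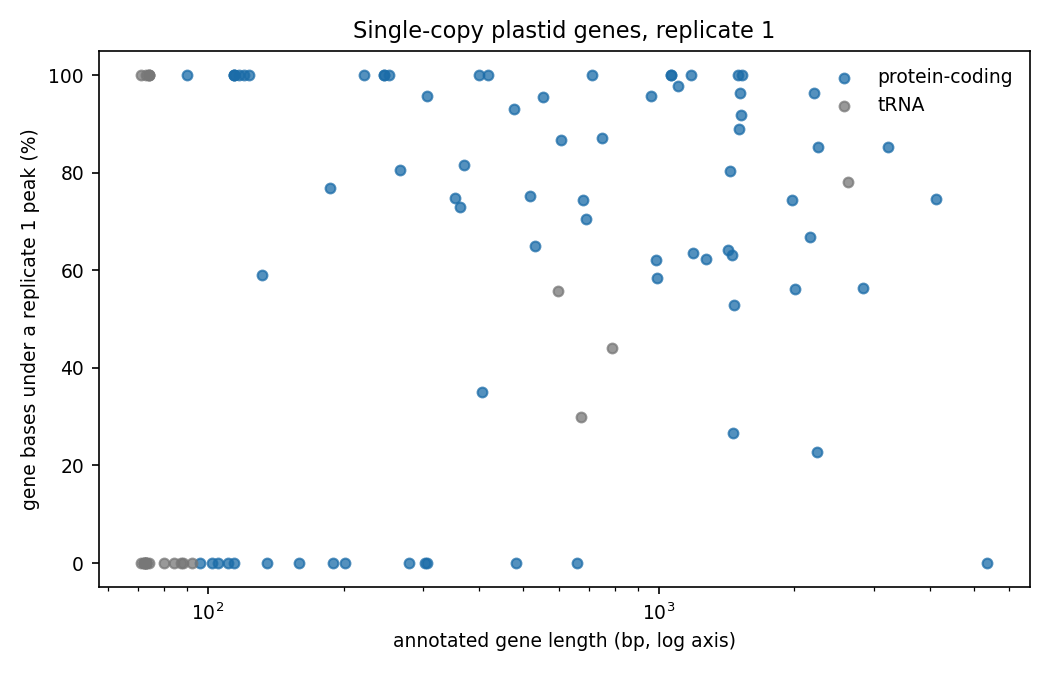
Share of each single-copy gene under a replicate 1 peak (y axis, %) against its annotated length (x axis, log scale), with tRNA genes in grey. Most points under 150 bp sit at 0% or 100%, and ycf1, at 5361 bp, sits at 0%.

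Some of the longest replicate 1 peaks ran over several genes and others stayed inside 1. A peak at 120977 to 123510, 2.53 kb, ran over ndhA, ndhH and rps15 with 8 summits. Another at 37454 to 39797 ran over psaB into psaA with 8 summits, and a further peak at 23338 to 25565 lay wholly inside rpoB with 9. Summits inside a peak were 304 bp apart (median of 105 spacings, range 69 to 696). The longest stretch without a peak, 81580 to 101063, ran for 19.5 kb from rps3 through rpl2, ycf2 and ndhB to trnV. It was not poor in genes, which made up 72.5% of its bases. Another stretch without a peak, 29954 to 32486 around trnY, trnE and trnT, lay inside the large single-copy region, and genes made up 9.04% of its bases.

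In the inverted repeat the lists met. Replicate 1 had 9 peaks there, 3.65 kb in all, and every base of them (100%) lay inside a replicate 2 peak. The replicate 2 peaks covered 25.2% of the repeat. In the other direction 27.7% of the replicate 2 bases in the repeat lay in a replicate 1 peak. Over the whole chromosome, 9 of 72 replicate 1 peaks overlapped a replicate 2 peak (12.5%, exact 95% interval 5.88 to 22.4), since the other 63 were in single-copy regions. Genes touched by both lists were rrn16S and rrn23S, each in both copies, 4 of 128 genes (3.12%). The repeat copies share 1 sequence, so the overlap in its copies is not independent. Both lists were also called against the same input, whose part in the overlap was not tested.

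The rRNA genes encode the RNA core of the plastid ribosome, and they held 17 of the 27 replicate 2 summits. Of 7 rRNA genes in the table, 4 were touched by replicate 1, with 38.8% of their bases covered, and 6 by replicate 2, with 98.6%. For rrn16S, the small-subunit rRNA gene, replicate 1 covered 69.0% of the first copy and 41.7% of the second, with 6 summits of 1.04 to 1.09. Replicate 2 covered both copies in full by peaks at 100816 to 102580 and 136017 to 137838, with highest folds of 1.87 and 1.86. The other replicate 2 summits in rrn16S were lower, 1.43 and 1.49 in the first copy and 1.58 in the second. For rrn23S, the large-subunit rRNA gene, replicate 1 covered 702 of 2810 bp in the first copy and 1111 of 2810 bp in the second, with 6 summits of 1.04 to 1.11. Replicate 2 covered both copies in full, together with rrn4.5S and part of trnA, by peaks at 104187 to 107927 and 130710 to 134468, which held 7 summits each. In both genes each replicate 2 fold was above each replicate 1 fold. ArthCr091, a 121 bp rRNA gene with no symbol in the table, had no base covered in either list.

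Within rrn23S the replicate 2 folds were graded. In the first copy, from the side of trnA towards rrn4.5S, they were 2.40 at 104880, 2.67 at 105422, 2.39 at 105708, 2.14 at 106081, 1.96 at 106676 and 2.00 at 107481. In the second copy, in the same direction along the gene, they were 2.39, 2.65, 2.40, 2.11, 1.97 and 1.95. The side of the gene facing trnA was thus the higher in both copies. At the highest summit the pileup was 1111 fragments, 628 times the mean coverage (fold 2.67, 95% Poisson interval 2.52 to 2.83), and replicate 1 had no peak over that position in either copy.

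The other replicate 2 peaks were shorter, and their highest folds were below those of the peaks on rRNA genes. The rpl2 summits were nevertheless above the lower rrn16S summits, which were at 1.43 to 1.58. Peaks at 102914 to 103281 and 135361 to 135775 lay inside trnI of the rRNA operon, with folds of 1.41 and 1.36. The lowest replicate 2 summits, 1.25 at 104268 and 1.28 at 134427, were in trnA. Both copies of rpl2, a ribosomal protein gene at the outer end of the repeat, had a peak over 26.1% and 22.2% of their length, at 84328 to 84730 (fold 1.61) and 153978 to 154343 (fold 1.72). Peaks at 108711 to 108966 (1.58) and 129691 to 129957 (1.63) lay between genes, 169 and 182 bp from trnN by their summits. Replicate 1 had no peak at any of these positions. Replicate 2 thus had peaks in 12 repeat genes, and the 20 others, among them ycf2, ndhB, rps7 and rpl23, had none in it.

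**Figure D5:**
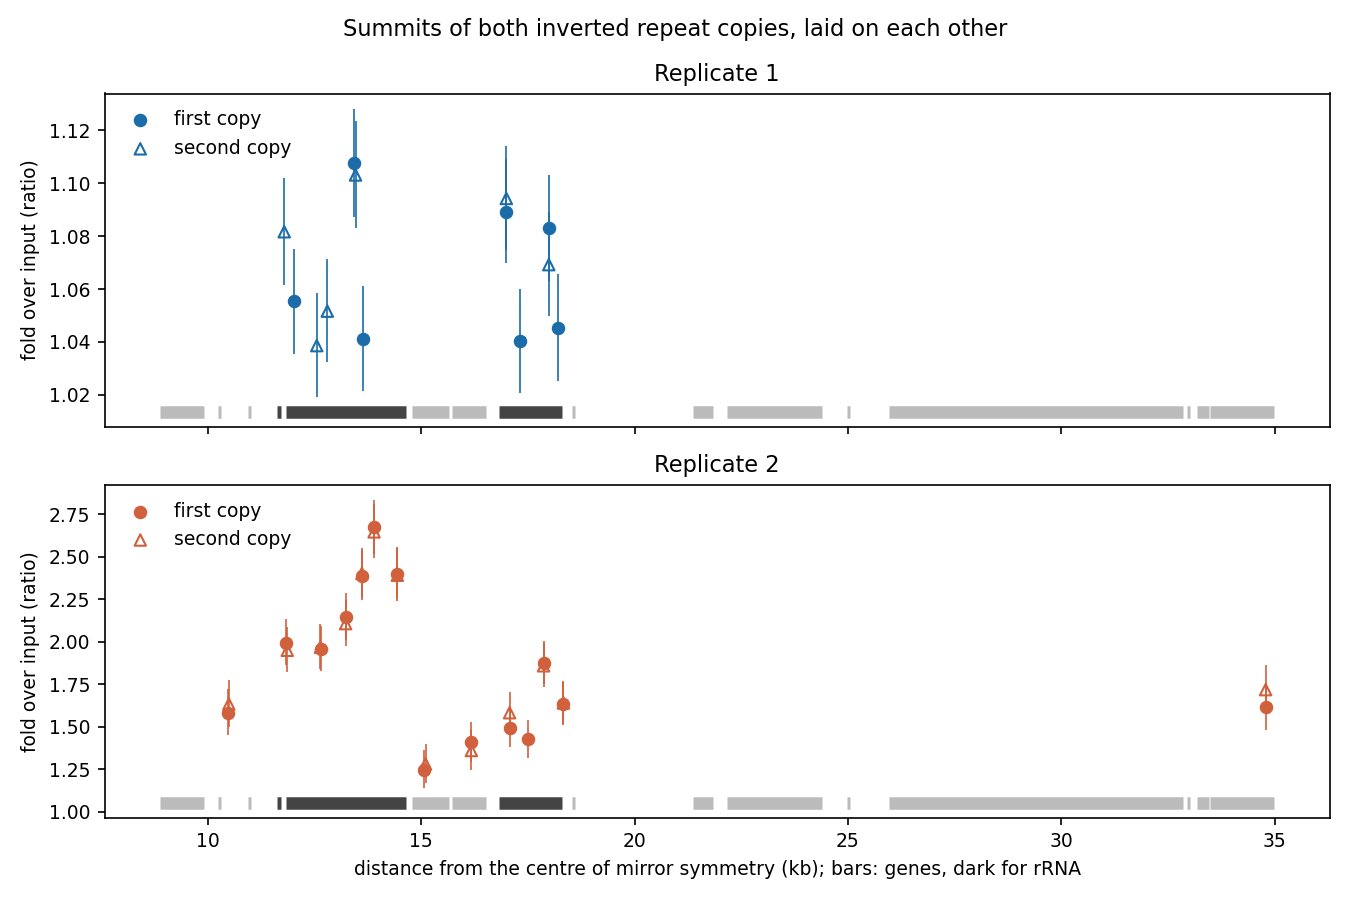
Fold over input (y axis, ratio, not starting at 0) of summits in both inverted repeat copies against distance from the centre of mirror symmetry (x axis, kb), with filled circles for the first copy, open triangles for the second and 95% Poisson intervals of the pileup. Bars along the bottom are genes, dark for rRNA. In replicate 2 the copies lie on each other, with 13 mirrored pairs, and in replicate 1 there are 3.

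The folds in the mirrored copies were close to each other. In replicate 2, 13 of the 14 first-copy summits had a partner within 50 bp of the mirrored position, and the folds of a pair differed by 1.76% (median, highest 6.04% in rpl2). The intervals of both copies overlapped in all 13 pairs. In replicate 1, 3 pairs were found among 7 first-copy and 6 second-copy summits, with folds that differed by 0.406% to 1.28%. These were in rrn16S and rrn23S, and the other 7 summits, all at 1.04 to 1.08, had no partner. Reads from a duplicated sequence cannot be assigned to a copy by sequence alone, so the copies are not replicates and their closeness does not measure how repeatable a summit was.

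Between the lists, the folds at the same place were far apart. The only summits of both lists within 50 bp of each other were in rrn23S, at 105692 and 105708. There the fold was 1.04 in replicate 1 (95% Poisson interval 1.02 to 1.06) and 2.39 in replicate 2 (2.25 to 2.54). Relative to mean coverage, the pileup was 249-fold in replicate 1 and 596-fold in replicate 2, over backgrounds of 239-fold in replicate 1 and 249-fold in replicate 2. Both backgrounds come from the same input library, scaled to each list. At 4 further pairs 71 to 92 bp apart, in rrn16S and in or beside rrn23S, replicate 1 folds were 1.04 to 1.09 and replicate 2 folds 1.49 to 1.97. With 1 library per list and no further replicate, no test of this difference was possible.

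Over the whole chromosome the fold ranges of the lists were apart. The lowest plastid fold in replicate 2 was 1.25 (−log10 q 3.05) and the highest in replicate 1 was 1.22, so no plastid fold of replicate 1 reached the lowest listed in replicate 2. Replicate 2 kept 995366 fragments against 28141317 in replicate 1, and the smallest fold it could have listed in the single-copy regions was not computed. Without that value, neither the separate ranges nor the lack of replicate 2 single-copy summits tells how far the lists agree there. The part of depth in the difference between the lists was not tested.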

How the data were processed

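The peak lists of both pull-down libraries were used. The submitters' processing notes name Trim Galore and TAIR10. Which aligner was used is not given in the sources used here. MACS 2.2.6 called the peaks from read pairs with subpeak summits, for each pull-down library apart against the same input, at a q cutoff of 0.05, an effective genome size of 135 Mb and at most 1 fragment kept per position, with the larger library scaled towards the smaller, per the file headers. The deposited pileup is a signal value, namely how many fragments cover the summit. The authors deposited the caller's −log10 p-value and −log10 q-value and its linear fold ratio. The input was used only through the fold.

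The background at a summit was computed as pileup plus 1 over fold, minus 1. Mean coverage was kept fragments times fragment length (203 and 240 bp) over genome size. Genes, their classes (by symbol, and by type for rRNA and tRNA genes) and the regions were taken from RefSeq (assembly TAIR10.1), which gave 128 plastid genes with the repeated row of rps12 counted once. None of its coordinates is printed. The repeat was bounded by the outermost mirrored genes. Unnamed repeat genes took the symbol of their mirrored partner. Shares carry Clopper-Pearson intervals and pileups exact Poisson intervals, which cover counting error only. No test against random placement was made. Calculations used Python 3.11.15, pandas 2.3.3 and scipy 1.17.1, and were tested on simulated data. Alternatives were stricter cutoffs, widened genes, shifted positions, 1 repeat copy and other overlap rules.

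Members, classes and comparisons were chosen with earlier results of these data known. Named were all replicate 2 plastid peaks, the 10 highest and 3 lowest replicate 1 summits, up to 6 covered and 6 uncovered genes per class, genes touched by both lists and summit pairs within 50 bp. The share of repeat bases in both lists and the other named genes were picked with their values in view.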

Additional observations from a re-analysis of the deposited data

How the results depend on the processing

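Of 254 values recomputed under 14 settings, 204 stayed within their margin and 50 moved. The margin was 1.5 times for counts, the exact 95% interval for shares (narrow for shares of bases, where it counts each base) and, for median folds, the arm of the 95% Poisson interval of the pileup at the summit nearest the median. The replicate 1 share of summits in the repeat stayed inside its interval at 4.83% with −log10 q of at least 5 and at 4.09% with 1 repeat copy, against 7.34%. With summits of −log10 q of at least 5, replicate 1 covered 70.1% of large single-copy gene bases and 30.9% of rRNA bases, with a median rRNA fold of 1.09. Wherever summits were filtered, a peak with any summit left was counted at its full length, so coverage could change little. With folds at or above the plastid median of a list, 89 replicate 1 and 14 replicate 2 summits were left. Replicate 1 then had 0% of its summits in the repeat, 0 rRNA genes touched, 0% of rRNA bases covered, 0 mirrored pairs and 0% of peaks overlapping replicate 2; it covered 63.6% of large single-copy gene bases and 19.9% of bases between genes, with a median fold in genes of 1.14. Replicate 2 then touched 0 ribosomal protein and 2 tRNA genes, with 7 mirrored pairs and a median fold in genes of 2.13. With genes widened by 100 bp, replicate 1 covered 63.5% of large single-copy gene bases, 15.1% of large single-copy bases between genes and 36.0% of rRNA bases, and replicate 2 covered 97.5% of rRNA bases and touched 8 tRNA genes. Shifted by -100 bp, replicate 2 covered 99.4% of rRNA bases. With 1 repeat copy, replicate 1 touched 2 rRNA genes; replicate 2 had 14 summits, touched 6 genes (1 ribosomal protein, 2 tRNA, 3 rRNA) and covered 100% of rRNA bases. When at least 50% of a gene had to be covered, replicate 1 touched 1 rRNA gene, and replicate 2 touched 7 genes, with 0 ribosomal protein and 1 tRNA gene among them. With the highest summit of each peak, the median rRNA fold was 1.09 in replicate 1 and 2.26 in replicate 2, and the replicate 2 median over genes 1.79. By reciprocal overlap of at least 50% 0% of replicate 1 peaks were shared, and by summits within 50 bp 1.39%. Both lists merged covered 65.9 kb and 79 genes; without either replicate this was 13.2 to 56.4 kb and 12 to 71 genes, the lower without replicate 1. No alternative for the share of repeat bases in both lists could be had from folds above the median, as replicate 1 then had no repeat peak. No paired analysis was possible because the pull-down libraries are replicates of 1 group. The cause of these shifts was not tested beyond what each setting removes.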
